A study of Mus musculus with 6 samples.

Results

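Metallothionein and zinc-handling genes were followed in blood stem and progenitor cells, sorted from marrow after induced deletion of Raptor, the defining subunit of the growth kinase complex mTORC1. The set has 8 genes of 18193 measured: the metallothioneins Mt1, Mt2 and Mt3, the metal-sensing transcription factor gene Mtf1, and the zinc transporter genes Slc30a1, Slc30a5, Slc39a1 and Slc39a10. The set was chosen by measured values of this same contrast: Mt1 and Mt2 stood among the genes that differed most between the groups, and the others were added by their role. Where several probe sets named a gene, the brightest on average across the 6 arrays stands for it, and the others are given beside it. The values of Mt1 and Mt2 below are a description, not evidence gathered independently of it.

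Per the labels, the sort took Sca1+ cKit+ cells that lacked Flt3 and lineage markers, from C57BL/6 background mice. In every mouse both Raptor alleles carried loxP sites around exon 6. The 3 Raptor mutant arrays came from mice that also carried the MxCre transgene, in which an interferon-responsive promoter drives the recombinase Cre, so deletion is not limited to blood stem cells. The 3 wild type arrays came from mice without MxCre. Mutant and wild type mice alike were given pIpC, a double-stranded RNA mimic that raises interferon, as 3 doses of 15 µg per g within 5 days. The sort followed 5 weeks later. The labels do not say whether an array stands for 1 mouse or a pool, and age is not given, so p-values measure array-to-array spread, part of which may be technical.

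The median log2 signal of an array was 6.85 to 6.94, with a lower quartile of 5.15 to 5.37. Wild type arrays 2 and 3 carried Y-linked signal (Kdm5d at 10.55 and 9.53 log2) and the other 4 arrays did not (3.60 to 3.88 log2). Among arrays without that signal the mutants can therefore be compared with wild type array 1 only. That array resembled the mutants (r = 0.977 to 0.984) more closely than its own group (r = 0.962 to 0.967). Wild type array 2 reached no r above 0.962 with any array, and array 3 none above 0.968. Mutants correlated with each other at r = 0.985 to 0.988. By correlation the wild type arrays thus did not form a group of their own, which limits every contrast below. The cause was not tested. Rptor itself was not called changed (log2 fold change 0.22, adjusted p = 0.77, limma), and the position of its probes against exon 6 was not analysed here, so it checks neither the deletion nor the labels. Kit, which encodes the gate's cKit, had log2 signals of 10.71 to 11.17 across all arrays, and the progenitor marker Cd34, not part of the gate, 11.51 to 11.87, whereas Flt3, which the gate excludes as a surface protein, stood at 9.51 to 10.79. Sca1, the gene Ly6a, had no probe set naming it alone.

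Metallothioneins are small, cysteine-rich proteins that bind zinc, copper and cadmium and buffer free zinc in the cell. The transcription factor MTF-1, the product of Mtf1, is activated by zinc and binds metal response elements (MREs) upstream of Mt1 and Mt2. Both genes are also known to be induced by glucocorticoids, inflammatory cytokines and oxidative stress. Cytosolic zinc is lowered by transporters of the SLC30 (ZnT) family, which move it out of the cell or into compartments, and raised by those of the SLC39 (ZIP) family.

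The sequences upstream of Mt1, Mt2, Mt3 and Slc30a1 are shown because the first pair rose, Mt3 lies beside them in the same gene cluster and Slc30a1 is a further known MTF-1 target. Each line gives the 250 bases before the annotated gene start, 5′ to 3′ on the gene's strand, from RefSeq on GRCm38.p6. All 8 genes matched an entry. The windows are chr8:94178839-94179088, chr8:94172368-94172617, chr8:94152357-94152606 and chr1:191906531-191906780, each on the plus strand. Capitals mark matches to the MRE core, searched on both strands as TGCACNC and as TGCGCNC.

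Mt1: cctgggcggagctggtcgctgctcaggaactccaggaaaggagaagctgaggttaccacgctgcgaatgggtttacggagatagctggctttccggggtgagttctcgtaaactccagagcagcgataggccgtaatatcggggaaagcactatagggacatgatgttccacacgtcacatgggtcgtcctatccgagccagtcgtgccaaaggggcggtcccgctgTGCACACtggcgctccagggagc

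Mt2: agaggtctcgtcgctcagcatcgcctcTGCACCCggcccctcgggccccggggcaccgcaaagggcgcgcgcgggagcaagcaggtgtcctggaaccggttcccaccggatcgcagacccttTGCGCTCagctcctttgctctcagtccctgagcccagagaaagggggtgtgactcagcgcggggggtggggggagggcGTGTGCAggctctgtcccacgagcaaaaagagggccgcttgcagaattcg

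Mt3: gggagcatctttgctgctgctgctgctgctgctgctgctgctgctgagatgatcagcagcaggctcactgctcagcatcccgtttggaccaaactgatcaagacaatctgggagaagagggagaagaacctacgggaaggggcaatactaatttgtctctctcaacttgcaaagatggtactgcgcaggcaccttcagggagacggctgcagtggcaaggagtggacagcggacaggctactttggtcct

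Slc30a1: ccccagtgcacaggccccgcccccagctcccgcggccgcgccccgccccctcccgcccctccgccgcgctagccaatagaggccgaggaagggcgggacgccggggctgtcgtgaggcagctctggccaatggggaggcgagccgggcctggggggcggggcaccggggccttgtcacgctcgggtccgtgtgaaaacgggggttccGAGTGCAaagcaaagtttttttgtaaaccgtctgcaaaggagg

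Mt2 had 3 core matches, beginning 223, 128 and 50 bases before the annotated start, the last on the minus strand. Of all 32851 upstream windows of this length, 1.26% held 3 or more matches and 21.4% held at least 1. Mt1 had 1 match, TGCACAC, 23 bases before its start, and Slc30a1 had 1, TGCACTC, on the minus strand at 43. Slc30a5 also had 1 match, TGCGCGC, and the windows of Mt3, Mtf1, Slc39a1 and Slc39a10 (which has 2 windows) had none. A longer form, which also requires G and C after the core and 1 free base, matched at 2 places in Mt2 and at 0 in Mt1, against 3.12% of all windows with at least 1. The core of the antioxidant response element, searched as TGACNNNGC, was found once each upstream of Mt2, Slc30a1 and Slc39a1 and in 10.2% of all windows. The E-box CACGTG was found upstream of Slc30a5 alone among the 8 genes and in 6.02% of windows. The palindromic consensus glucocorticoid response element was in none of the 8 genes' windows and in 3 of all windows. These are letter matches in a short window and are not binding sites shown by these data. Bases after the annotated start were not searched, and that start may lie upstream of the start in use. The counts therefore do not show how many MREs the whole promoter of Mt1 or Mt2 holds, nor which has more.

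Mt1, which encodes a broadly expressed and inducible metallothionein, rose in Raptor mutant arrays. Its signal was 252, 263 and 282 on wild type arrays 1, 2 and 3, and 2716, 3048 and 3577 on mutant arrays 1, 2 and 3. The groups lay far apart, with a gap of 3.27 log2 units between the highest wild type and the lowest mutant array, and both groups were tight. Group means were 8.05 ± 0.08 and 11.60 ± 0.20 log2 (SD, n = 3 each), a difference of 3.54 ± 0.17 (SE) or 11.7-fold. By size of increase Mt1 ranked 3 among all 18193 genes. A dimmer Mt1 probe set had signals of 96.3, 65.0 and 88.9 on wild type and 484, 432 and 403 on mutant arrays, a 5.33-fold difference. Both Mt1 probe sets therefore separated the groups, by different amounts.

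Mt2, its neighbour and close paralog, rose as well. Its signal was 224, 196 and 214 on wild type arrays and 1720, 1163 and 2928 on mutant arrays. The groups did not overlap, but mutant arrays spread more than those of Mt1, with array 3 highest and array 2 lowest. The means were 7.72 ± 0.10 and 10.82 ± 0.67 log2 (SD, n = 3 each), a difference of 3.09 ± 0.31 (SE) or 8.54-fold. Mt2 ranked 7 by size of increase. The brightest Mt1 probe set carries the suffix _s_at, which the array's naming uses for probes that can match more than 1 transcript, and how far Mt1 and Mt2 transcripts share its signal was not tested.

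**Figure D1:**
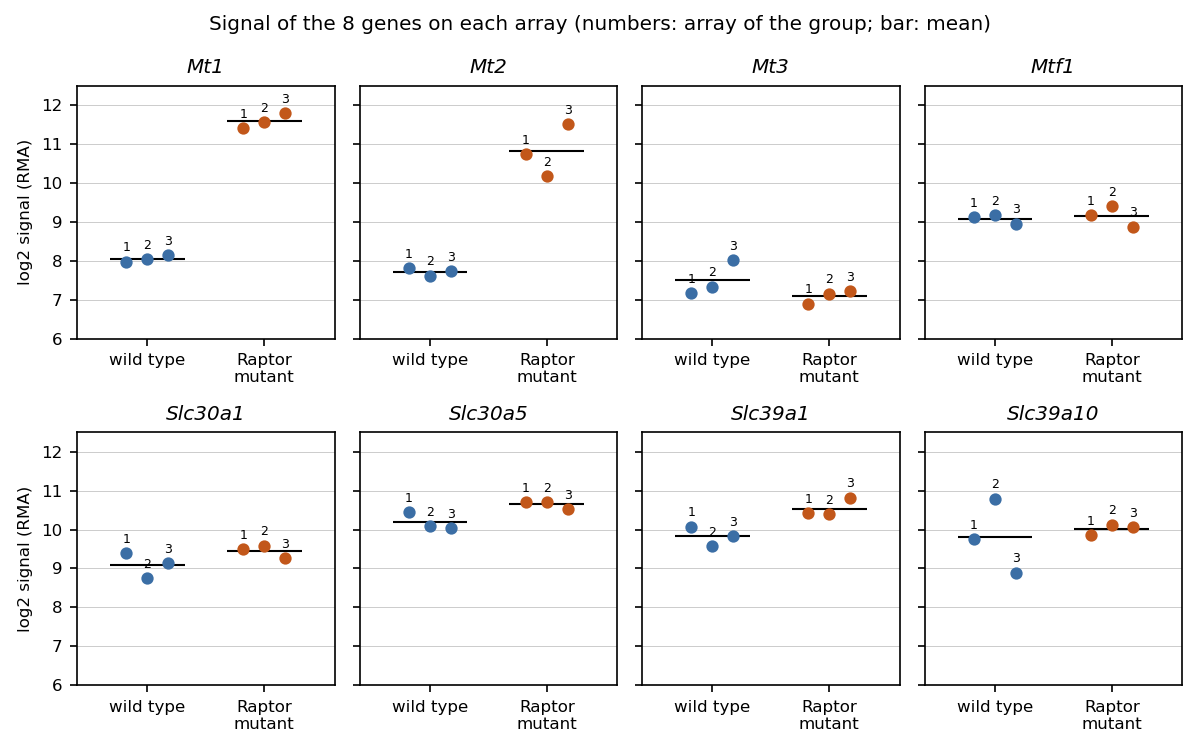
Log2 RMA signal (vertical axis) of the 8 genes on the 3 wild type (blue) and 3 Raptor mutant (orange) arrays, numbered by array, with a bar at each group's mean. Mt1 and Mt2 sit near 8 on wild type and above 10 on mutant arrays, the other 6 genes differ by less than 1 log2 unit, and levels are not comparable between panels because each probe set has its own response.

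These were the 2 members called of 8, both higher, and 0 were called lower (limma, adjusted p under 0.05 over all genes). Fitted by probe set, 2 of the 15 were called, both of Mt1, and 5 had groups that did not overlap, where 0.0343% of all single-gene probe sets were called and 15.6% did not overlap. Over all genes 0.110% were called in either direction and 0.0550% higher, and since the contrast had a part in choosing the members nothing is read from the comparison. At an unadjusted p under 0.05 the counts were 4 higher and 0 lower, and 10.0% of all genes passed that level in either direction. The fit of Mt2 was sensitive to single arrays. Its call was lost without wild type array 1, 2 or 3 or mutant array 1, with adjusted p of 0.071, 0.080, 0.10 and 0.098 by limma, while its log2 fold change stayed between 2.74 and 3.41 whichever array was left out. Mt1 kept its call without any single array (3.44 to 3.64). Set against wild type array 1 alone, the array without Y-linked signal, the mutants differed by 3.62 for Mt1 and 3.01 for Mt2. With wild type arrays 2 and 3 left out, neither was called, nor was any other gene. That fit takes its spread from the mutant arrays alone.

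Mt3, a metallothionein best known from neurons, did not share this. Its log2 signal was 7.16, 7.33 and 8.02 on wild type and 6.90, 7.15 and 7.22 on mutant arrays. The groups overlapped, with wild type array 3 highest. The difference was -0.41 ± 0.25 (SE), with a 95% interval of -0.99 to 0.16 (adjusted p = 0.61, limma), and against wild type array 1 alone it was -0.07. Mt4, the fourth gene of the cluster and known from stratified epithelium, had signals of 5.81, 6.58 and 6.05 log2 on wild type arrays and 5.75 to 5.88 on mutant arrays, and a difference of -0.34 ± 0.22. No detection calls were used, so whether either transcript was present is not known.

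In RefSeq order on chromosome 8 the cluster runs Mt4, Mt3, Mt2, Mt1. The nearest measured genes were read on both sides to see whether the difference extended beyond the pair. Before the cluster, Bbs2, a gene of primary cilia, differed by -0.61 ± 0.36 (SE, log2), Ogfod1, a ribosomal protein hydroxylase, by 0.31 ± 0.15, and Nudt21, a subunit of an mRNA 3′ end processing factor, by 0.11 ± 0.19. After it, the nucleoporin gene Nup93 differed by -0.02 ± 0.16, with a 95% interval of -0.38 to 0.35. The probe set named for Mir138-2 differed by -0.21 ± 0.18, and Slc12a3, a kidney sodium-chloride cotransporter, by 0.00 ± 0.17. None of the 6 neighbours was called (smallest adjusted p = 0.54, limma), and at an unadjusted p under 0.05 the count was also 0.

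**Figure D2:**
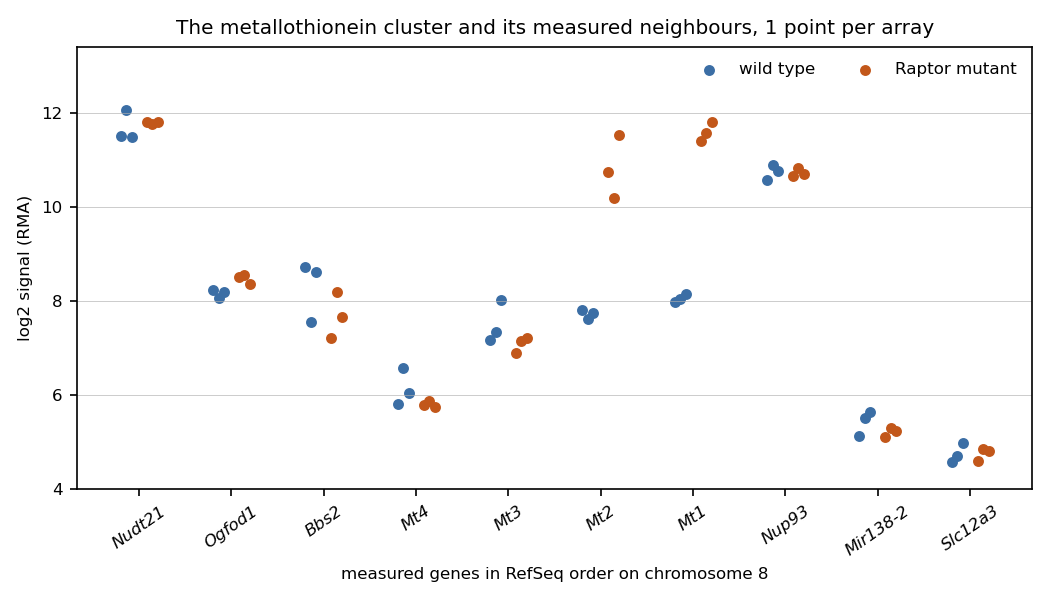
Log2 RMA signal (vertical axis) on each of 3 wild type (blue) and 3 Raptor mutant (orange) arrays for the metallothionein genes and the 3 nearest measured genes on each side, in RefSeq order on chromosome 8 (horizontal axis, not to distance). Mt2 and Mt1 are the genes in which mutant points lie more than 2 log2 units above wild type points, while Nup93 beside them differed by -0.02.

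Mtf1, the metal sensor, had 5 probe sets, and none was called. On the brightest the log2 signal was 9.13, 9.17 and 8.95 on wild type and 9.17, 9.40 and 8.88 on mutant arrays. The groups overlapped, and mutant array 3 was the lowest of all. The difference was 0.06 ± 0.18 (SE; adjusted p = 0.90, limma), with a 95% interval of -0.36 to 0.49. A change of Mtf1 mRNA as large as that of Mt1 lies well outside it, but the activity of MTF-1 was not measured. The sign of the difference turned after cyclic loess normalization (-0.02) and without wild type array 3 (-0.01) or mutant array 2 (-0.06). The 4 dimmer probe sets differed by 0.11, 0.24, -0.24 and -0.09, in both directions.

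Slc30a1 encodes ZnT1, the exporter of zinc at the cell surface and a known target of MTF-1. Its log2 signal was 9.39, 8.75 and 9.13 on wild type and 9.49, 9.59 and 9.27 on mutant arrays. Wild type array 1 lay within the mutant range. The difference was 0.36 ± 0.20 (SE), with a 95% interval of -0.12 to 0.83 (adjusted p = 0.59, limma), and it was 0.06 against wild type array 1 alone. The second probe set differed by -0.10, with a 95% interval of -0.51 to 0.32, so the probe sets disagreed in sign and neither was called.

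Slc30a5 encodes ZnT5, which loads zinc into the secretory pathway. Its log2 signal was 10.45, 10.09 and 10.03 on wild type and 10.71, 10.71 and 10.53 on mutant arrays. The groups did not overlap, with a gap of 0.08 between wild type array 1 and mutant array 3. The difference was 0.46 ± 0.17 (SE; adjusted p = 0.45, limma), and 0.20 against wild type array 1 alone.

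Slc39a1 encodes the surface importer ZIP1. Its log2 signal was 10.08, 9.57 and 9.83 on wild type and 10.42, 10.39 and 10.82 on mutant arrays. Every mutant array was higher than every wild type array, with a gap of 0.31. The difference was 0.72 ± 0.20 (SE) or 1.64-fold, with a 95% interval of 0.25 to 1.18, and it did not pass after adjustment over all genes (adjusted p = 0.29, limma). It was 0.46 against wild type array 1 alone. Across alternative settings its difference ranged from 0.46 to 0.84 and it was called in none of 18.

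Slc39a10 encodes the importer ZIP10, whose transcription MTF-1 is known to repress. Its brighter probe set read 9.75, 10.80 and 8.89 log2 on wild type arrays, a wider spread than on mutant arrays, which read 9.86, 10.13 and 10.06. All mutant values lay inside the wild type range. The difference was 0.20 ± 0.42 (SE; adjusted p = 0.86, limma), and -0.26 without wild type array 3. The second probe set read 9.63, 8.97 and 9.38 on wild type and 9.68, 9.56 and 9.79 on mutant arrays, a difference of 0.35 ± 0.21. Wild type array 2 was the highest array on one probe set and the lowest on the other.

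**Figure D3:**
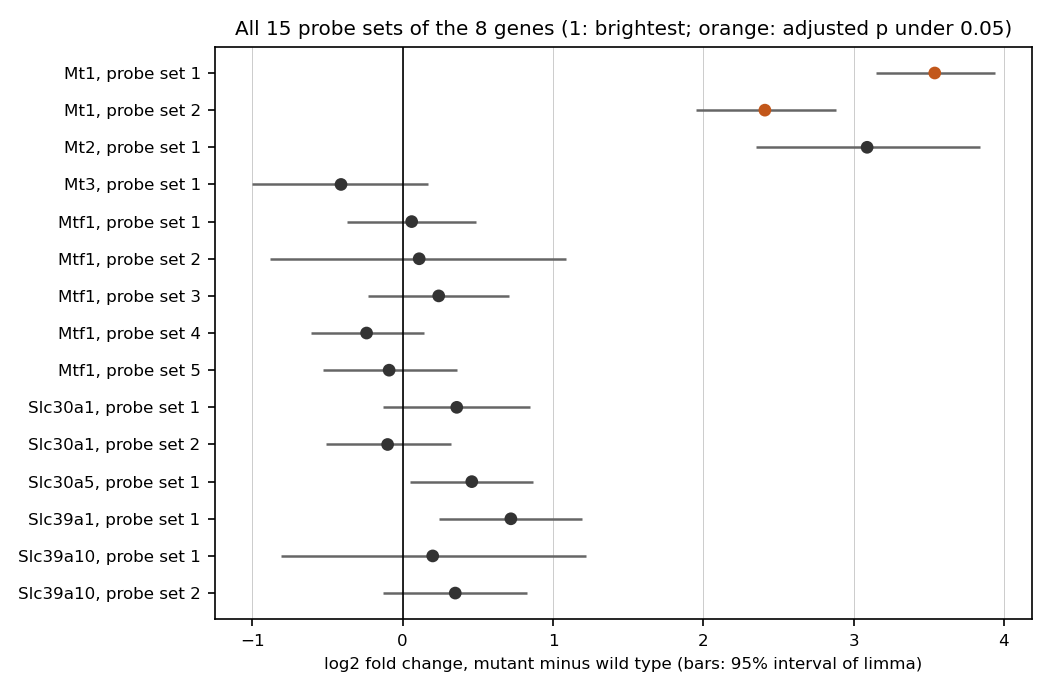
Log2 fold change, mutant minus wild type (horizontal axis), with its 95% limma interval for all 15 probe sets of the 8 genes, fitted among 34945 single-gene probe sets and ordered from the brightest (1) within a gene, with adjusted p under 0.05 in orange. Both Mt1 probe sets and Mt2 lie above 2, Mt2 just misses the threshold in this larger fit (adjusted p = 0.051), and the other 12 intervals reach no higher than 1.22.

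Among the 8 genes, 4 had mutant values all above wild type values (Mt1, Mt2, Slc39a1 and Slc30a5) and 0 had them all below, where 8.08% of all genes lay wholly above, 7.98% wholly below and 16.1% either way. Nothing is read from this comparison either. Over the 6 arrays Mt1 and Mt2 correlated at r = 0.98, Slc39a1 with Mt1 and Mt2 at 0.88 and 0.93, Slc30a5 at 0.82 and 0.78, and Mtf1 at 0.14 and -0.04. These correlations are a description over 6 arrays that fall into 2 genotype groups, so any gene that differs between the groups scores high.

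The whole zinc transporter families were then read to see whether the transporters shifted together. All 10 SLC30 and all 14 SLC39 genes were measured, and 0 of the 24 were called in either direction by limma. Of the exporter family 5 lay above and 5 below 0, with a median log2 fold change of -0.01, and of the importer family 8 lay above and 6 below, with a median of 0.13. The median of all genes was -0.07, and 40.4% of all genes lay above 0. The exporter median ranged from -0.01 to 0.23 and the importer median from -0.05 to 0.26 over the alternative settings, so neither had a settled direction. At an unadjusted p under 0.05 the exporter list had 1 of 10 genes, Slc30a5, and the importer list 3 of 14, where 10.0% of all genes passed. The same share stands beside the counts at that level in the lists that follow.

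Slc39a14 and Slc39a8, importers that also carry iron and manganese, had large differences on the high side of the importer list. Slc39a14 read 7.84, 8.55 and 6.56 log2 on wild type and 8.56, 8.66 and 8.59 on mutant arrays. Wild type array 3 was the lowest and array 2 all but reached the mutants. The difference was 0.96 ± 0.44 (SE; adjusted p = 0.53, limma). Slc39a8 read 9.69, 9.45 and 9.15 on wild type and 10.18, 10.30 and 9.71 on mutant arrays, so the groups stood apart by a narrow margin. Its difference was 0.63 ± 0.22 (adjusted p = 0.42, limma). On the low side Slc39a12 differed by -0.42 ± 0.17, Slc39a5 by -0.38 ± 0.19 and Slc39a11 by -0.27 ± 0.21. Slc39a12 was among the 3 importers at an unadjusted p under 0.05, the others being Slc39a1 and Slc39a8, which were higher. Slc39a12 and Slc39a5 read below the median signal of every array. In the exporter family the other genes with the smallest p were Slc30a4, which fills vesicles with zinc, at 0.28 ± 0.38, and Slc30a3, the synaptic vesicle transporter, at -0.25 ± 0.19, followed on the low side by Slc30a8 of insulin granules at -0.07 ± 0.18 and Slc30a10, a manganese exporter, at -0.03 ± 0.18. Slc30a8 and Slc30a10 read below the lower quartile of every array. Counted without the 4 members, 20 transporters had a median of -0.01.

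**Figure D4:**
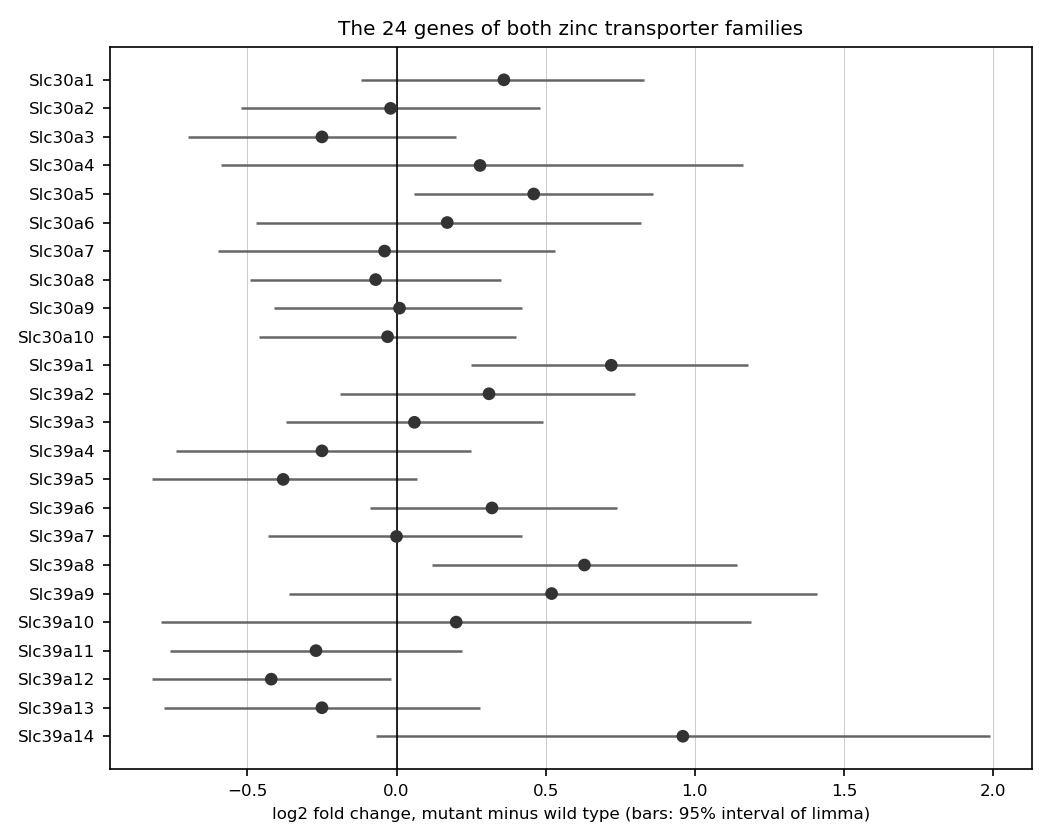
Log2 fold change, mutant minus wild type (horizontal axis), with its 95% limma interval for the 10 SLC30 and 14 SLC39 genes. No gene passed an adjusted p under 0.05, and the differences run from -0.42 for Slc39a12 to 0.96 for Slc39a14.

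Other genes linked to MTF-1 were read in the same fit. Of a list of 10 that holds 4 members, 2 were called, Mt1 and Mt2, and the remaining 8 were not. Selenow, a small selenoprotein, differed by 0.27 ± 0.16 (SE, log2), Ndrg1 by -0.26 ± 0.17, Pgf, a growth factor, by -0.27 ± 0.18, and the LIM protein gene Csrp1 by -0.24 ± 0.19. Slc40a1, the iron exporter ferroportin, read 7.56, 6.81 and 7.40 on wild type and 8.29, 6.80 and 8.57 on mutant arrays, so mutant array 2, the mutant array lowest in Mt2, was lowest here too. The list's median was 0.23 with the 4 members, of which Mt1 and Mt2 were chosen by this contrast, and -0.14 for the other 6 genes.

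Copper shares carriers with zinc through metallothionein, and 12 copper-handling genes had a median of -0.01 with 0 called by limma and 1 at an unadjusted p under 0.05. That gene was Slc31a2, a copper transporter of endosomes, which read 8.30, 6.93 and 7.53 log2 on wild type and 8.44, 8.58 and 8.37 on mutant arrays. Its difference was 0.88 ± 0.32 (SE; adjusted p = 0.44, limma), and 0.17 against wild type array 1 alone. The importer Slc31a1 differed by 0.39 ± 0.21, Commd1 by -0.23 ± 0.18 and the export pump Atp7a by -0.35 ± 0.29.

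Genes that report on the other known inducers of Mt1 and Mt2 were read as lists. Of 15 measured targets of the oxidative stress factor NRF2, 0 were called and 1 had an unadjusted p under 0.05, with a median of -0.08 beside the -0.07 of all genes. That gene was Me1, malic enzyme, at -0.72 ± 0.28 (SE, log2). Hmox1, haem oxygenase and a sensitive stress gene, differed by -0.52 ± 0.30, Osgin1 by -0.59 ± 0.27, Txnrd1, thioredoxin reductase, by 0.20 ± 0.20 and the exporter gene Abcc1 by 0.38 ± 0.18.

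Of 9 glucocorticoid targets 0 were called by limma, 3 had an unadjusted p under 0.05, and members stood on both sides of 0 with a median of -0.18. Sgk1, a kinase, read 7.76, 5.44 and 6.56 log2 on wild type and 8.52, 7.84 and 9.0 on mutant arrays, a difference of 1.87 ± 0.56 (SE; adjusted p = 0.33, limma). The clock gene Per1 differed by 0.86 ± 0.40. Against wild type array 1 alone Sgk1 differed by 0.70 and Per1 by 0.29. Ddit4, an inhibitor of mTORC1, read 11.10, 10.69 and 10.46 on wild type and 9.58, 8.67 and 9.54 on mutant arrays, a difference of -1.49 ± 0.29 (adjusted p = 0.15, limma). Dusp1 differed by -0.62 ± 0.18 and Tsc22d3, the leucine zipper protein GILZ, by -0.57 ± 0.28. Fkbp5, a widely used glucocorticoid readout, differed by 0.21 ± 0.15. The members of this list did not move one way.

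Of 8 genes of interleukin 6 and STAT3 signalling 0 were called by limma and 2 had an unadjusted p under 0.05, with 6 above 0 and a median of 0.31. The 2 below 0 were Osmr at -0.29 ± 0.20 (SE, log2) and Junb at -0.26 ± 0.23. Il6st, the shared receptor chain gp130, read 9.62, 9.0 and 9.05 log2 on wild type and 10.41, 10.26 and 10.25 on mutant arrays. The groups stood apart, and the difference was 1.09 ± 0.20 (SE; adjusted p = 0.15, limma), or 0.69 against wild type array 1 alone. Pim1, a kinase induced by STAT factors, differed by 0.62 ± 0.20 and Bcl3 by 0.54 ± 0.25, while Socs3, the feedback inhibitor, read 7.67, 6.71 and 8.59 on wild type and 7.66 to 8.36 on mutant arrays, so the groups overlapped.

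**Figure D5:**
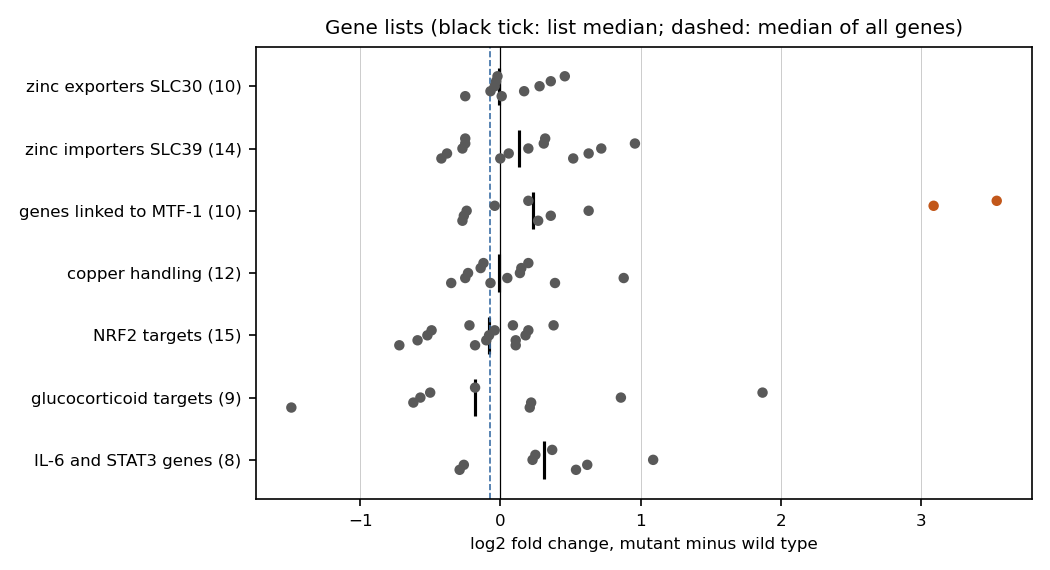
Log2 fold change, mutant minus wild type (horizontal axis), of each measured gene in 7 lists (rows, number of genes in parentheses), with a black tick at the list median, a dashed line at the median of all genes (-0.07) and called genes in orange. Mt1 and Mt2 stand alone beyond 3 in the list linked to MTF-1, and the list medians lie between -0.18 and 0.31.

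Several marker lists of mature cells differed in summed signal between the groups in the same arrays. The summed linear signal of 8 mast cell and basophil markers was 2210 to 2863 on wild type and 5237 to 8311 on mutant arrays, and 5 of the 8 lay wholly higher in mutants. For 12 macrophage and dendritic cell markers the sums were 1677 to 1818 and 3782 to 7988, with 7 wholly higher. Of all genes 8.08% lay wholly higher. In either list 0 genes were called (smallest adjusted p of 0.072 and 0.078, limma). Members of both lists differed among themselves. Fcer1a stood at 9.30 to 9.92 log2 on mutant arrays and differed by 3.45, while the mast cell tryptase gene Tpsb2 differed by -0.06. C1qb stood at 7.55 to 9.03 and differed by 2.57, while C1qa differed by 0.28, Vcam1 by -0.04 and Adgre1, which encodes F4/80, by -0.22. Array signals are never 0. Granulocyte markers had sums of 27911 to 36226 on wild type and 12825 to 16168 on mutant arrays, with Camp, an antimicrobial peptide, called lower (-3.81). Of 10 granulocyte markers 7 lay wholly lower in mutants. Mpo (0.16) and Prtn3 (0.19) lay above 0, and Cd177 (-1.11) overlapped between groups. Mpo alone read 8683 to 9771 in linear signal on mutant arrays. Stem and progenitor markers summed to 20386 to 23229 and 15957 to 17205, with Tek, a receptor of quiescent stem cells, called lower (-1.48). Of 10 stem and progenitor markers 5 lay wholly lower, where 7.98% of all genes did. T and NK cell markers summed to 3083 to 3391 and 4027 to 4879, of which Gzmb was called and Cd3e and Cd3d were at or below 5.94. Gzmb alone read 626 to 1301 in linear signal on mutant arrays, against 27.8 to 62.6 on wild type. Of the 10 T and NK cell markers 5 lay above and 5 below 0, with a median of 0.07. Only 1 lay wholly higher, near the share of all genes. B cell markers (552 to 1033 over all arrays) and erythroid markers (3896 to 9967) overlapped between groups. The part of other cells in the metallothionein difference was not tested, and in bulk RNA more cells of a type and more RNA per cell cannot be told apart. On mutant arrays 1, 2 and 3 the mast cell sums were 8311, 5237 and 6592 and the macrophage sums 7988, 3782 and 5303, both highest on array 1 and lowest on array 2. Mt2 was also lowest on array 2 and was highest on array 3, and Mt1 was lowest on array 1 and highest on array 3. Among single markers C1qb, C1qc and Mertk had the order of Mt2 on the mutant arrays. So did markers of other lists, among them Gzmb, Gata2, Nkg7, Tfrc and Cd79b, so this order is not particular to macrophage markers.

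By a rule set for this description, the genes whose log2 signal followed Mt1 and Mt2 most closely over the 6 arrays were named, after a filter on names. The filter left out the members and names of clone or predicted form. It also dropped any name that begins with C or D and a digit, such as C1qb. For Mt1 these were Twnk, the mitochondrial DNA helicase, at r = 0.992, Fubp1 at 0.991, Tmem215 at 0.991, the nuclear exportin gene Xpo1 at 0.990 and Psen2, a presenilin, at 0.989. Of these Tmem215 had a difference of similar size (3.50 ± 0.22, SE, log2), and Xpo1 one of 0.46 ± 0.14. For Mt2 they were Evc2 at 0.996, Rasgef1b at 0.996, the lysosomal protease gene Ctsd at 0.994, Efr3b at 0.990 and Gid8 at 0.990. Evc2, a primary cilium protein, read 6.20 to 6.21 on wild type arrays and 7.84, 7.77 and 8.45 on mutant arrays, with array 3 highest and array 2 lowest as for Mt2. The lists for Mt1 and Mt2 shared no gene.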

How the data were processed

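RNA of sorted bone marrow cells was measured on 6 arrays, 3 per group, grouped by the sample titles. Each array's deposited table lists a linear intensity for every probe set. The submitters' processing notes name RMA, and its version and settings are not given. Before testing, log2 of the deposited intensities was taken. Of 45101 probe sets, 34945 named 1 gene in the platform annotation, 932 named several and 9160 none, and 64 were controls. The last 3 kinds were left out. Entrez identifiers of 34741 matched the GRCm38.p6 RefSeq table. The brightest probe set of each gene over all arrays was used (18193 genes, no filter on dim ones).

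The contrast, mutant minus wild type without covariates, was fitted by limma 3.58.1 (lmFit, eBayes; R 4.3.3) and adjusted by the Benjamini-Hochberg method over all genes, with a call at an adjusted p under 0.05. P-values are two-sided. Errors are SD for group means and SE for differences. The procedure was tested on simulated data with the same spread on every array, so that test does not cover the unequal arrays here. Array data carry no read depth, and the number of arrays limits the precision.

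The members, the lists, the tests and the alternatives were chosen with earlier results of these data known. Named genes are the members, called genes of the lists, and up to 3 per direction of each pathway list by smallest p. Also named are 3 measured neighbours on each side of the cluster and the 5 genes most like Mt1 and Mt2 by Pearson correlation. For that correlation the members and names of clone or predicted form were left out, by a pattern that also dropped names such as C1qb. Marker genes named and further list genes were chosen after their values were seen. Promoter windows came from RefSeq. Alternatives are named in the closing section.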

Additional observations from a re-analysis of the deposited data

How the results depend on the processing

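The alternatives changed which members passed, not the direction of Mt1 or Mt2. Against 20 genes and 2 members called higher in the comparison as reported, limma called 10 genes and 1 member with the replicate number as a block, 8 and 1 after weighting the arrays, and 40 and 2 with trend and robust fitting. Fitted by probe set, 12 of 34945 probe sets were called, which is a count of probe sets and not of genes, and 1 member, Mt1, through both of its probe sets. With a covariate for Y-linked signal limma called 0 genes and 0 members (1149 genes at an unadjusted p under 0.05). In a second fit, without wild type arrays 2 and 3, no gene was called either. The second fit rests on 1 wild type array, which is assumed to vary like the mutants. Wild type arrays correlated less with each other (r = 0.957 to 0.967) than mutants did (r = 0.985 to 0.988), so that fit takes its spread from the tighter group. Leaving out each array in turn gave 5 (without wild type array 3) to 31 (without wild type array 1) genes and 1 to 2 members. No member was called lower in any setting, and at an unadjusted p under 0.05 the count was 0 as well. Mt1 ranged from 2.98 to 3.64 and was called in 16 of 18 alternatives. Mt2 ranged from 2.74 to 3.41 and was called in 9 of 18. Mtf1 reversed after cyclic loess (-0.02), and ranged from -0.06 to 0.20 with single arrays left out. Slc39a10 ranged from -0.26 to 0.69 in the same way. The causes were not tested. With the lower 50% of genes left out, 7 members remained, without Mt3.

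The labels number arrays 1 to 3 in both groups. Deviations of same-numbered arrays from their group means correlated at 0.18, -0.03 and 0.06 over all genes. For arrays with unlike numbers the values ran from -0.16 to 0.09. With 3 arrays per group such values cannot exclude a shared litter or batch. With the replicate number as a block the adjusted p of Mt2 was 0.055 (limma) and its log2 fold change 3.09.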

Other observations

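The MRE core was also counted upstream of every measured gene with a RefSeq window. The median log2 fold change was -0.08 over 10036 genes with no match, -0.03 over 3194 with 1, -0.01 over 915 with 2, 0.03 over 234 with 3, the class of Mt2, and 0.02 over 73 with 4 or more. The share above 0 was 38.6%, 46.4%, 48.6%, 54.3% and 52.1% in the same order. The classes also differed in base composition and signal, with a median GC content of 55.6%, 60.8%, 64.4%, 65.6% and 68.0% and a median mean log2 signal of 7.42, 8.22, 8.45, 8.57 and 8.18. Their part in the difference was not tested.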
